A study of Homo sapiens with 36 samples.

Results

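The integrin subunits described here are 10 genes: the alpha chains ITGA2, ITGA3, ITGA5, ITGA6 and ITGAV, and the beta chains ITGB1, ITGB3, ITGB4, ITGB5 and ITGB6. They were taken by symbol from tables of 19137 gene symbols. They hold 18 of the 36499 transcript rows in each table, and the transcript with the highest mean count over all 36 libraries stood for its gene. Ribosome profiling sequences the fragments of messenger RNA that ribosomes protect (footprints), and total RNA sequencing gives the level of the messages. The libraries come from a breast epithelial model and a fibroblast model of transformation.

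The epithelial line, MCF10A-ER-Src, carries a Src kinase fused to the hormone-binding part of the oestrogen receptor. Adding 4-hydroxy-tamoxifen turns the fused kinase on. All ER-Src libraries, the uninduced ones included, carry the fusion. Cells received 1 µM 4-hydroxy-tamoxifen for 1, 4 or 24 h. The uninduced arm joins cells at 0 h with cells given ethanol, the vehicle, for 1, 4 or 24 h. Under cycloheximide, which stalls elongating ribosomes, it holds 4 libraries (0 h from replicate 1 and ethanol from replicate 2), and each tamoxifen time holds 2. RNA was sequenced once at each time and treatment (4 uninduced and 3 tamoxifen libraries). Harringtonine, which holds ribosomes where translation starts while those further along run off, was used once at 0 h and at each tamoxifen time. The BJ fibroblast lines are labelled EH, EL and ELR, and the labels do not say what the letters mean. As background, the BJ transformation series of this kind adds telomerase, the SV40 early region and an oncogenic HRAS in turn. Each BJ line has 2 cycloheximide libraries, 2 harringtonine libraries and 1 RNA library. The labels do not say whether replicates were separate cultures, so p-values measure the spread between these libraries, which may be technical.

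Counts assigned to genes summed to 1334866 to 3628073 in the ER-Src cycloheximide libraries, 163092 to 374359 under harringtonine and 2225844 to 3008760 in RNA. In the BJ lines they summed to 1178012 to 2606344, 129175 to 214806 and 2071883 to 2551358. Replicate libraries of a BJ line differed little beyond counting noise (chi-square per gene 1.09 to 1.17, where counting alone gives about 1), and those of an ER-Src arm differed more (3.58 to 4.99). Marker genes were checked against the labelled cell types. Under cycloheximide 3 of 12 epithelial markers, KRT5, KRT6A and CDH1, were at 0 in every BJ library. Of 10 fibroblast markers, 3 (COL1A2, COL3A1 and THY1) were at 0 in every ER-Src library. In RNA no marker of either set was at 0 in every library of a model. The summed level of 10 fibroblast markers was 40394 to 40442 CPM (the normalised read count, scaled to a common library size by TMM) in EH, 14424 to 14668 in EL and 10867 to 10965 in ELR. The sum of 12 epithelial markers was 10117 to 14735 CPM in the 4 uninduced ER-Src libraries and 17491 to 20588 at 24 h of tamoxifen. Each set also gave a signal in the other model under cycloheximide. The epithelial sum was 875 to 1394 CPM in the BJ lines, and the fibroblast sum was 920 to 1550 in the ER-Src cells. These sums moved with the comparisons below, and their part in the integrin results was not tested. In such bulk libraries, fewer cells of a type and less RNA per cell cannot be told apart.

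Integrins are the receptors by which cells grip the matrix around them. Each is an alpha chain paired with a beta chain, and the pair sets what is bound. ITGB1 joins many alpha chains: with ITGA2 it binds collagen, with ITGA3 or ITGA6 it binds laminin, and with ITGA5 it is the classic fibronectin receptor. ITGB4 pairs only with ITGA6 and anchors epithelial cells to the basement membrane through hemidesmosomes. ITGAV joins ITGB1, ITGB3, ITGB5 or ITGB6 to bind vitronectin, fibronectin and the latent form of TGF-beta. ITGB6 is known as a subunit of epithelial cells that pairs only with ITGAV. In breast epithelium and in fibroblasts, Src works beside focal adhesion kinase where integrin tails meet the actin cytoskeleton.

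The genes were placed on GRCh37, the assembly behind hg19. ITGA2 lies on chromosome 5 (52285170 to 52390609), ITGA5 on chromosome 12 (54789045 to 54813050), and ITGA6 and ITGAV on chromosome 2 (173292082 to 173371187 and 187454737 to 187545628). ITGA3 lies on chromosome 17 (48133332 to 48167845), as do ITGB3 (45331193 to 45391109) and ITGB4 (73717408 to 73753899). ITGB1 lies on chromosome 10 (33176201 to 33294720), ITGB5 on chromosome 3 (124480795 to 124620265) and ITGB6 on chromosome 2 (160956178 to 161056824). The alpha chains have 3144 to 3543 coding bases, ITGB4 has 5466, and the other beta chains 2364 to 2397. Reads of 1 gene are thus spread over different lengths, so levels are compared between genes only per kilobase of coding sequence.

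The cytoplasmic tails of these chains carry short sequence patterns. In the alpha chains the stretch GFFKR just inside the membrane clasps the beta chain. The 5 alpha chains are shown by the coding bases of this stretch in GRCh37, 5′ to 3′ on the coding strand, with its codons in capitals. Each lies within a single coding exon.
ITGA2 (chr5:52386349-52386390, plus strand, GFFKR from residue 1157 of 1181): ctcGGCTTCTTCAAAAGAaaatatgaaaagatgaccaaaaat
ITGA3 (chr17:48165589-48165630, plus strand, GFFKR from residue 1017 of 1051): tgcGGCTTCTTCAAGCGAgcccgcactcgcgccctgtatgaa
ITGA5 (chr12:54790119-54790160, minus strand, GFFKR from residue 1024 of 1049): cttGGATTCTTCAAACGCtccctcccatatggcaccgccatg
ITGA6 (chr2:173366500-173366541, plus strand, GFFKR from residue 1040 of 1073): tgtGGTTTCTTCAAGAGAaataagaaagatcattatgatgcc
ITGAV (chr2:187541924-187541965, plus strand, GFFKR from residue 1019 of 1048): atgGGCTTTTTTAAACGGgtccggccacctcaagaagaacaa
All 5 spell the same 5 residues with different codons. In the beta chains the pattern NPxY (x is any residue) takes up talin. Talin and kindlin, both adaptors of beta tails, link the receptor to actin. The capitals in the next set mark those codons.
ITGB1 (chr10:33190522-33190563, minus strand, NPIY from residue 780 of 798): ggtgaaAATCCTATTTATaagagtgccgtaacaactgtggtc
ITGB1 (chr10:33190501-33190545, minus strand, NPKY from residue 792 of 798): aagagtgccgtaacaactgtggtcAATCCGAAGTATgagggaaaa
ITGB3 (chr17:45387505-45387546, plus strand, NPLY from residue 770 of 788): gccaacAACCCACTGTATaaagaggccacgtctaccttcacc
ITGB5 (chr3:124482524-124482565, minus strand, NPLY from residue 771 of 799): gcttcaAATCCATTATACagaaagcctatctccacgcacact
ITGB6 (chr2:160958304-160958345, minus strand, NPLY from residue 759 of 788): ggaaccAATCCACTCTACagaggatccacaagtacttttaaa
ITGB1 held 2 matches to the pattern in its last 80 residues, and the ITGAV partners ITGB3, ITGB5 and ITGB6 held 1 each. Only this pattern, with Y or F at the end, was searched, so other adaptor sites in these tails were not counted. ITGB4, whose cytoplasmic part is far longer and is built for hemidesmosomes, was searched over its whole length. It matched once, at residue 1085 of 1822.

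In the BJ fibroblasts, footprints of every one of the 10 members that could be tested were fewer in EL than in EH. Of the 10 members, 8 passed the filter on low counts, and all 8 fell. The largest changes were in the collagen-binding chain ITGA2, in ITGB5 and ITGAV, which bind vitronectin together, and in the common partner ITGB1. In the same comparison 4150 of 9996 genes were called (41.5%), 1909 up and 2241 down, so a call by itself is common here. The members' median log2 change was −1.11, and that of all genes tested was −0.006. Calls are from edgeR's quasi-likelihood test, two-sided, at an adjusted p (Benjamini-Hochberg over all genes tested) under 0.05. The 3 comparisons among the BJ lines share libraries and one estimate of the spread, so they are not independent of each other.

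ITGA2 stood at 203 and 219 CPM in the 2 EH libraries, at 47.0 and 33.1 in EL and at 185 and 198 in ELR. EL was low in both libraries, and EH and ELR lay close together. The log2 change from EH to EL was −2.36 (SE 0.12, edgeR adjusted p 9.23e-28), and that from EL to ELR was 2.25 (SE 0.11, adjusted p 6.14e-29). ELR differed from EH by −0.11 (SE 0.09, adjusted p 0.306), which did not pass. ITGA6, a laminin-binding chain, was at 348 and 322 CPM in EH, 170 and 156 in EL, and 582 and 576 in ELR. The 3 lines did not overlap, and ELR was the highest. ITGA6 fell by 1.03 on the log2 scale from EH to EL (SE 0.08, edgeR adjusted p 1.1e-19) and rose by 1.84 from EL to ELR (SE 0.06, adjusted p 2.08e-39). ITGA3, the other laminin-binding alpha chain, had the same order, with 269 and 276 CPM in EH, 218 and 224 in EL, and 400.21 and 399.58 in ELR. Its log2 changes were −0.29 (SE 0.08, edgeR adjusted p 0.000912) and 0.88 (SE 0.06, adjusted p 5.2e-21).

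The remaining subunits did not come back in ELR. ITGB1 had 4441 and 4200.3 CPM in EH, 1942 and 1941 in EL, and 1722 and 1644 in ELR. Both EL libraries were below both EH libraries, and both ELR libraries were lower still. Its log2 change was −1.15 from EH to EL (SE 0.03, edgeR adjusted p 9.04e-46) and −0.18 from EL to ELR (SE 0.03, adjusted p 7.44e-07). The fibronectin receptor chain ITGA5 had 489.9 and 503 CPM in EH, 379.9 and 374 in EL, and 293 and 287 in ELR. It fell at each step, by 0.39 (SE 0.06, edgeR adjusted p 6.14e-08) and by 0.36 (SE 0.06, adjusted p 2.57e-07). ITGAV had 232 and 214 CPM in EH, 81.2 and 74.0 in EL, and 69.1 and 65.0 in ELR. ITGB5, its vitronectin-binding partner, had 163 and 181 CPM in EH, 44.6 and 36.8 in EL, and 41.2 and 36.2 in ELR. For both, EL and ELR lay together below EH. From EH to EL, ITGAV changed by −1.51 (SE 0.10, edgeR adjusted p 5.7e-22) and ITGB5 by −2.05 (SE 0.12, adjusted p 1.01e-23). From EL to ELR neither change passed (−0.19, SE 0.11, edgeR adjusted p 0.204 for ITGAV, and −0.05, SE 0.15, adjusted p 0.845 for ITGB5).

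ITGB3, the beta chain best known from platelets and angiogenic vessels, was scarce, with 17 and 14 footprints in EH, 17 and 12 in EL, and 11 and 2 in ELR. In CPM these are 12.9 and 12.6, 6.54 and 5.45, and 4.20 and 1.07. Its change from EH to EL was −1.07 (SE 0.41, edgeR adjusted p 0.0294), and DESeq2 gave an adjusted p of 0.233. Leaving out any single EH or EL library also ended this call (adjusted p 0.0718 to 0.147). The change from EL to ELR, −1.03, did not pass (SE 0.49, edgeR adjusted p 0.0965), but without ELR replicate 1 it was −2.40 and did (adjusted p 0.0321). Against EH, ELR was lower by 2.10 (log2 change −2.10, SE 0.48, edgeR adjusted p 0.000149). The 2 chains tied to epithelia were close to absent: ITGB4 had at most 7 footprints in a BJ library, and ITGB6 had 1 in the 2 EH libraries together and 0 in EL and ELR. A count of 0 allows up to 0.6249 CPM in EL and 0.667 in ELR (3 counts over the group's 2 libraries, counting error only).

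From EL to ELR, 5 of the 8 tested members were called, ITGA2, ITGA3 and ITGA6 up and ITGA5 and ITGB1 down, where 36.1% of all genes were called. From EH to ELR, 7 of 8 were called, where 53.4% of all genes were. ITGA3 (0.59, SE 0.07) and ITGA6 (0.82, SE 0.06) were higher in ELR than in EH, and ITGA5 (−0.74), ITGAV (−1.70), ITGB1 (−1.33), ITGB3 and ITGB5 (−2.10) were lower (edgeR adjusted p at most 0.000149). The members' median was −0.11 from EL to ELR and −1.03 from EH to ELR, and that of all genes was −0.009 and −0.007. When the spread was estimated together with the ER-Src libraries, whose replicates differ more, 5 members were called between EL and EH and 3 between ELR and EL: ITGA3, ITGA5 and ITGB3 lost the first call (adjusted p 0.19, 0.185 and 0.0658), and ITGA5 and ITGB1 the second (0.261 and 0.332).

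**Figure D1:**
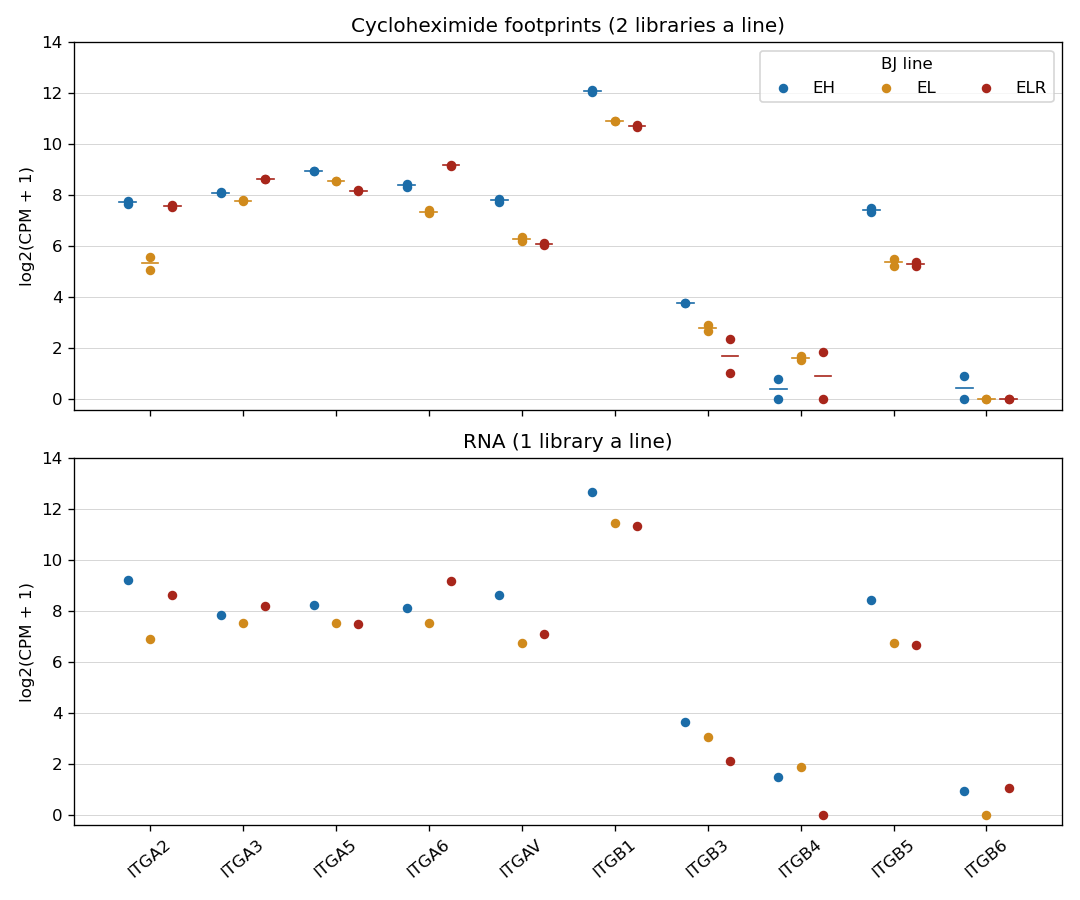
Level of each integrin subunit in the BJ lines EH, EL and ELR as log2(CPM + 1), for cycloheximide footprints (top, 2 libraries a line, the dash marking the mean) and RNA (bottom, 1 library a line). ITGA2, ITGA3 and ITGA6 are lowest in EL and higher again in ELR, and ITGB1, ITGAV and ITGB5 are low in both EL and ELR.

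RNA was sequenced once in each BJ line and has no replicate check by itself. ITGA2 stood at 585 CPM in EH, 119.7 in EL and 394 in ELR, ITGA6 at 278, 182 and 575, and ITGB1 at 6432, 2804 and 2608. ITGAV had 395, 107 and 135 CPM, ITGB5 343, 107 and 99.4, and ITGA5 297, 185 and 176. The RNA of these 6 subunits was lower in EL than in EH, as their footprints were. Ribosome loading, the change in footprints beyond the change in RNA, was fitted with the assumption that the single RNA libraries vary like the footprint replicates. Between EL and EH, 1 of 8 members was called, against 6.71% of 11081 genes: ITGA6, at −0.41 (SE 0.12, edgeR adjusted p 0.026). Between ELR and EL it was 1 of 8 against 2.97%: ITGAV, at −0.58 (SE 0.17, adjusted p 0.0394). Between ELR and EH it was 1 of 8 against 7.48%: ITGA2, at 0.41 (SE 0.11, adjusted p 0.0143). DESeq2 called none of the 8 in any of these loading comparisons, and each of the 3 calls was also lost when a library was left out (ITGA6 without EH replicate 1, edgeR adjusted p 0.115, or EL replicate 2, 0.0574; ITGAV without EL replicate 1, 0.156, or either ELR replicate, 0.108 and 0.135; ITGA2 without EH replicate 1, 0.158, or ELR replicate 2, 0.116).

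Harringtonine footprints, from separate and shallower libraries of the same lines, were tested in their own fit. Between EL and EH, 6 of 7 tested members fell, where 18.5% of 3553 genes were called. ITGA2 had 67 and 44 footprints in EH (555 and 384 CPM), 13 and 26 in EL (77.8 and 156) and 133 and 136 in ELR (673 and 616). EL was again below both other lines. It changed by −2.08 (SE 0.26, edgeR adjusted p 1e-13), and ITGB1 by −1.08 (SE 0.08, adjusted p 8.38e-38). ITGA3 was the member that did not pass (−0.10, SE 0.16, edgeR adjusted p 0.75). The calls of ITGA5 and ITGB5 were lost with DESeq2 (adjusted p 0.234 and 0.356) and with no filter on low counts (edgeR adjusted p 0.218 and 0.143). ITGA5 was also lost without either EH library (0.123 and 0.0697) or EL replicate 2 (0.149), and ITGB5 without EH replicate 1 or 2 (0.232 and 0.23), EL replicate 1 or 2 (0.31 and 0.077) or ELR replicate 1 (0.0512). Between ELR and EL, 4 of 7 were called, where 16.3% of all genes were: ITGA2 (2.45, SE 0.22), ITGA6 (2.00, SE 0.12) and ITGA3 (0.59, SE 0.13) rose, and ITGB1 fell by 0.23 (SE 0.09, edgeR adjusted p 0.0488). DESeq2 called ITGA2 and ITGA6 of these 4, with adjusted p 0.104 for ITGA3 and 0.419 for ITGB1. The ITGB1 call was also lost with no filter on low counts (edgeR adjusted p 0.124) and on leaving out any one of the 6 libraries (0.0532 to 0.438). Between ELR and EH, 6 of 7 were called, where 30.7% of all genes were, with ITGA3 (0.49) and ITGA6 (0.96) up and ITGA5 (−0.67), ITGAV (−1.51), ITGB1 (−1.31) and ITGB5 (−2.06) down. DESeq2 did not call ITGA3 (adjusted p 0.183) or ITGB5 (0.0524), and without EH replicate 2 ITGA3 changed by 0.25 (edgeR adjusted p 0.352).

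Among the genes that work with integrins, the ligands had the lowest median change from EH to EL. Of 29 tested integrin ligands, 24 fell and 1 rose, with a median of −1.59, where 41.5% of all genes were called in either direction. The type I collagen chains, which ITGA2 and ITGB1 bind, led them: COL1A2 went from 12059 and 12081 CPM in EH to 1193 and 1238 in EL and 19.5 and 23.4 in ELR. Its log2 change from EH to EL was −3.30 (SE 0.03), that of COL1A1 was −2.77 (SE 0.03), and CYR61, a matricellular ligand, rose by 0.40 (SE 0.05). Both collagens are also among the 10 fibroblast markers. Among adaptors and adhesion signalling proteins, 21 of 39 fell and 4 rose (median −0.33), with the actin crosslinker FLNA at −1.53 (SE 0.03) and TLN1, the talin that switches integrins on, at −0.98 (SE 0.05). Among hemidesmosome and laterally associated membrane proteins, 11 of 15 fell and 1 rose (median −0.68), PLEC, the plectin that ties integrins to intermediate filaments, by 1.89 (SE 0.04). Of 14 inhibitors and trafficking proteins, 6 fell and 0 rose, a share near that of all genes. Of 6 other integrin subunits tested, 4 fell and 1 rose: ITGA4 changed by −0.57 (SE 0.13), and ITGA8 went from 13.5 and 13.7 CPM in EH to 0 in EL and ELR. The one that rose was ITGA7, by 1.83 (SE 0.52), from 2.28 to 3.61 CPM in EH to 8.17 to 12.3 in EL. All these calls are edgeR's at an adjusted p under 0.05.

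From EL to ELR the ligands split. ICAM1, a cell-surface ligand of leukocyte integrins, rose by 2.31 (SE 0.16), and LAMB3, a chain of the laminin that ITGA3 and ITGA6 bind, rose by 2.87 (SE 0.21), from 6.36 and 9.24 CPM to 53.1 and 62.9. In all 7 of 29 ligands rose and 21 fell (median −1.39, edgeR), where 36.1% of all genes were called in either direction. Of 39 adaptors, 2 rose and 20 fell (median −0.25): PXN (paxillin) rose by 0.98 (SE 0.07) and PTK2 (focal adhesion kinase) by 0.30 (SE 0.12), and FERMT2, a kindlin, fell by 1.17 (SE 0.08). Of 15 hemidesmosome and lateral proteins, 4 rose and 5 fell, among them SDC1 (syndecan-1, 1.24, SE 0.10) and PLAUR (the urokinase receptor, 0.73, SE 0.07) up, and CAV1 (caveolin-1, −1.07, SE 0.05) down. Of 14 inhibitors and trafficking proteins, 3 rose and 4 fell, a share closer to that of all genes than the ligands had, and DAB2, an endocytic adaptor of integrins, fell by 2.18 (SE 0.15). Of 6 other integrin subunits tested, 0 rose and 3 fell (median −0.58). The collagen-binding chain ITGA1 fell by 1.57 (SE 0.31), where ITGA2 rose. ITGA11, at 3.08 to 3.63 CPM in EL, fell by 2.72 (SE 0.86).

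In the ER-Src epithelial cells, induction left the integrin subunits without a call at 1 and 4 h, and by 24 h 4 of the 10 had risen. These were ITGA2, ITGA5, ITGB3 and ITGB6, and they rose in both footprints and RNA. ITGA3, ITGA6, ITGAV, ITGB1, ITGB4 and ITGB5 were not called in either. At 24 h 14.6% of 10193 genes were called in footprints and 6.47% of 10612 in RNA. The members' median at 24 h was 0.19 in footprints and 0.20 in RNA, beside −0.015 and −0.022 for all genes. All times share the uninduced arm.

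ITGA2 had 121, 175, 183 and 190 CPM in the 4 uninduced cycloheximide libraries (ethanol 24, 4 and 1 h, and 0 h), 180.06 and 185 after 1 h of tamoxifen, 284 and 180.33 after 4 h, and 557 and 535 after 24 h. Both 24 h libraries were above all 8 others. The log2 change at 24 h was 1.71 (SE 0.18, edgeR adjusted p 7.73e-06). In RNA it had 388 CPM at 0 h and 241 after 24 h of ethanol, with the 1 and 4 h ethanol libraries between them. With tamoxifen its RNA was at 336 and 373 at 1 and 4 h and at 1007 at 24 h, a change of 1.67 (SE 0.19, edgeR adjusted p 6.63e-05). In both assays the ethanol libraries, 1 at each time, were lower the later they were taken, and their order was not tested.

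ITGA5 had 205, 142, 136 and 154 CPM in the uninduced footprint libraries (0 h, then ethanol 1, 4 and 24 h), 200.45 and 159 at 1 h, 209 and 119.9 at 4 h, and 538 and 366 at 24 h. Again only the 24 h libraries stood above the rest. Replicate 1 was the higher at each tamoxifen time, and the 0 h library, also replicate 1, was the highest uninduced one. The uninduced arm is mostly replicate 2, whereas each tamoxifen time has both replicates equally. How much this adds to the pooled change was not tested. The change at 24 h was 1.51 (SE 0.21, edgeR adjusted p 0.00012), and 1.22 to 1.78 with 1 library left out. In RNA, ITGA5 had 55.5 to 85.4 CPM uninduced, 89.2 and 86.1 at 1 and 4 h, and 239.8 at 24 h (1.71, SE 0.20, edgeR adjusted p 7.98e-05).

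ITGB6, like ITGA2, also moved with time in the vehicle arm. Its footprints were at 230.4 CPM at 0 h and at 238, 162 and 93.8 after 1, 4 and 24 h of ethanol. With tamoxifen they were at 249 and 289.8 at 1 h, 295 and 264 at 4 h, and 409.9 and 521 at 24 h. In RNA it had 397 CPM at 0 h and 379, 239 and 162 in ethanol, and 386, 469.8 and 844 with tamoxifen. The ethanol libraries, 1 at each time, were lower the later they were taken, and their order was not tested. Against the pooled uninduced arm the change at 24 h was 1.38 in footprints (SE 0.25, edgeR adjusted p 0.00131) and 1.51 in RNA (SE 0.31, edgeR adjusted p 0.00839). DESeq2 did not call ITGB6 in RNA (adjusted p 0.189). Without the 24 h ethanol library the footprint change was 1.17, and it stayed called.

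ITGB3 went from near absence to a low level. The uninduced footprint libraries held 1 count in all, the 1 h libraries 2, the 4 h libraries 5, and the 24 h libraries 15 and 34 (9.12 and 10.2 CPM). The ratio of 24 h to uninduced was 107 (95% counting interval 18.4 to 4322, edgeR adjusted p 9.66e-06). In RNA there were 0 counts in the 4 uninduced libraries and in the 1 and 4 h libraries, and 32 at 24 h. With a floor of 3 counts over the 4 uninduced libraries, this RNA was at least 40.2-fold higher (edgeR adjusted p 0.00329). Per kilobase of coding sequence, ITGB3 footprints at 24 h were at 4.08 CPM (SD 0.317, n = 2), below every other member.

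**Figure D2:**
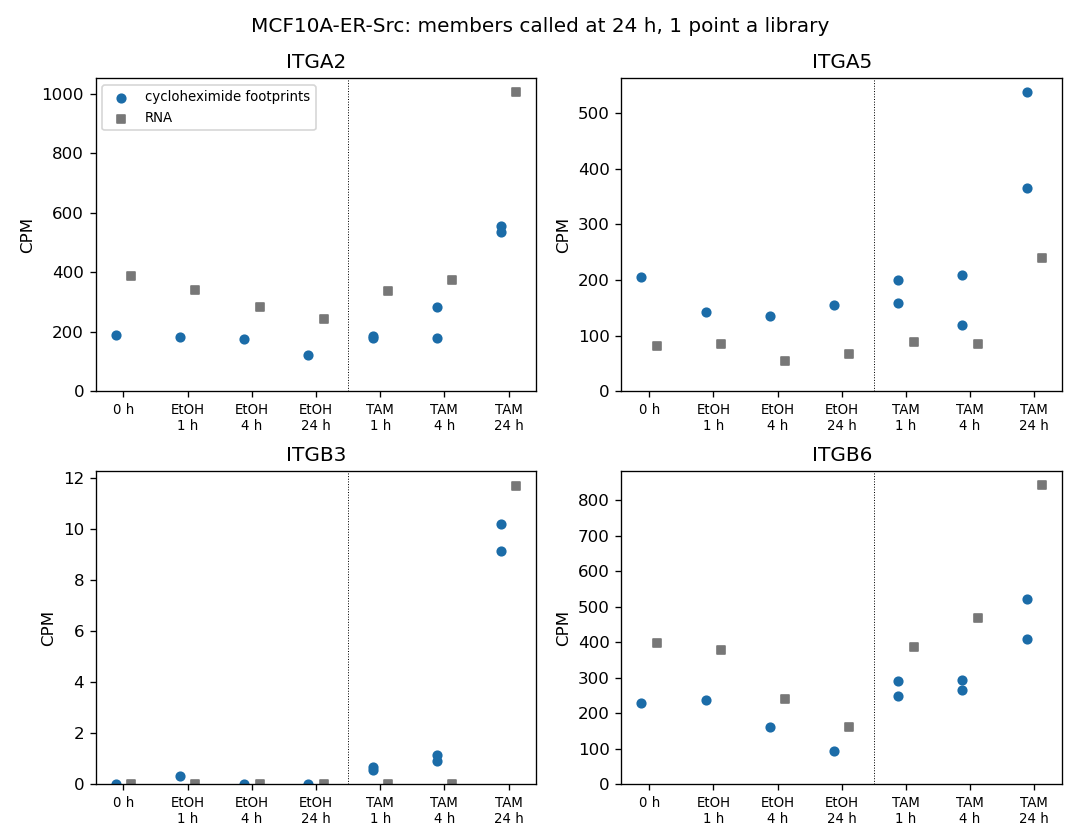
CPM of the 4 integrin subunits called at 24 h in the ER-Src cells, with a point for each cycloheximide footprint library (circles) and RNA library (squares), uninduced libraries left of the dotted line and tamoxifen libraries right of it. The 24 h tamoxifen libraries are the highest for all 4 genes, and ITGA2 and ITGB6 are lower in the later ethanol libraries.

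The other 6 members were not called at 24 h. ITGB1 had 1333 to 1683 CPM in the uninduced footprint libraries and 1867 and 1484 at 24 h (0.13, 95% interval −0.15 to 0.41). ITGA6 had 778 to 1009 CPM uninduced and 950.0 and 860.1 at 24 h (−0.04, 95% interval −0.30 to 0.22), and ITGB4, its hemidesmosome partner, had 750.3 to 1067 CPM uninduced and 1168 and 788 at 24 h (0.19, 95% interval −0.18 to 0.56). For all 3 the groups overlapped. ITGA3 changed by 0.15 (95% interval −0.17 to 0.47) and ITGAV by 0.20 (−0.09 to 0.49). ITGB5 was at 74.5 to 95.1 CPM uninduced and at 67.5 and 54.2 at 24 h, with no overlap, a change of −0.51 (SE 0.17) that missed the threshold (edgeR adjusted p 0.0531). It passed without the 24 h ethanol library (−0.57, edgeR adjusted p 0.0217), without replicate 1 at 1 h of tamoxifen (−0.51, 0.0485), with no filter on low counts (−0.49, 0.0437) and with the replicate number as a block (−0.54, 0.0464). Its RNA change was −0.30 (SE 0.17, edgeR adjusted p 0.362).

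**Figure D3:**
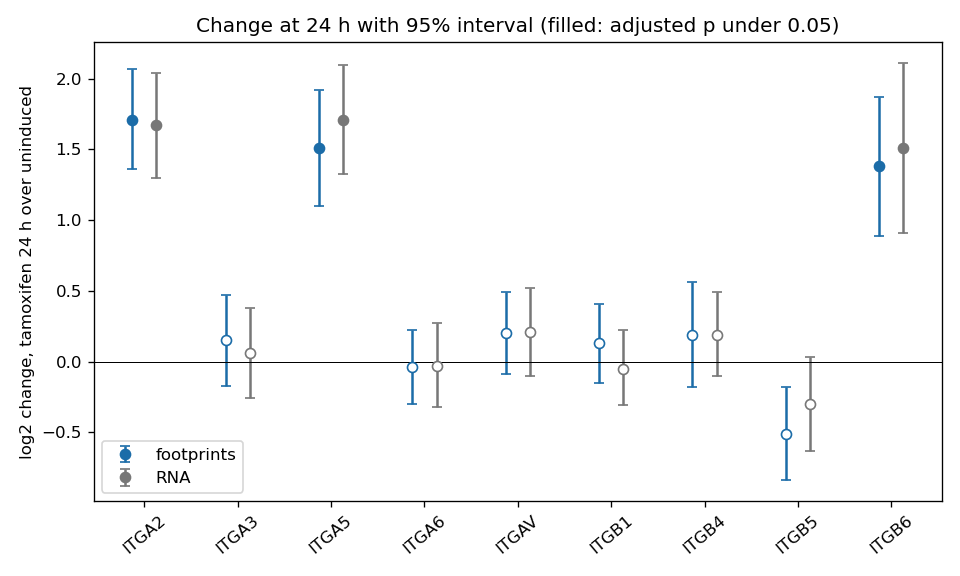
Log2 change after 24 h of 4-hydroxy-tamoxifen against the uninduced arm, with 95% intervals, for 9 subunits in footprints and RNA (filled points have an edgeR adjusted p under 0.05). ITGA2, ITGA5 and ITGB6 lie above 0 in both, and ITGB3 is not drawn because its controls held 1 footprint and no RNA read.

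At 1 h, 0 of 10 members were called in footprints by edgeR, where 0.0196% of all genes were (2 genes). At an unadjusted p under 0.05 there was 1 member, ITGB6 (0.60, p 0.0371 in edgeR), and DESeq2 called 0. At 4 h, again 0 were called by edgeR and by DESeq2, where 0.854% of all genes were (87 genes), and 3 members had an unadjusted p under 0.05: ITGA2 (0.47), ITGB3 (5 counts against 1, ratio 11.0, 95% counting interval 1.23 to 519) and ITGB6 (0.64). In RNA, 0 were called by edgeR or DESeq2 at 1 h (0.00942% of all genes) and at 4 h (0.16%), and 0 had an unadjusted p under 0.05. The difference between times was fitted directly, as a contrast added after seeing the data. From 1 to 24 h ITGA2 rose by 1.57 (SE 0.22, edgeR adjusted p 0.000269), ITGA5 by 1.32 (SE 0.26, adjusted p 0.00337) and ITGB3 (49 counts against 2, adjusted p 0.0022), and ITGB5 fell by 0.63 (SE 0.19, adjusted p 0.0439). These are 4 of 10, where 13.6% of all genes were called. From 4 to 24 h, 3 of 10 were called, where 8.41% of all genes were: ITGA2 (1.25, SE 0.22, edgeR adjusted p 0.00212), ITGA5 (1.48, SE 0.26, adjusted p 0.00216) and ITGB3 (49 counts against 5, adjusted p 0.00302). ITGB6 passed in neither (0.78, adjusted p 0.0968, and 0.74, adjusted p 0.146).

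Set against the ethanol library of the same time, 1 library against 1 and so with no test, the same 4 subunits were past 2-fold at 24 h in footprints and RNA. The log2 ratios with a pseudocount of 1 CPM were 2.14 and 2.06 for ITGA2, 1.24 and 1.81 for ITGA5, 2.46 and 2.37 for ITGB6, and 3.48 and 3.66 for ITGB3. Of genes at 10 CPM or more, 6.85% were past 2-fold in footprints and 8.15% in RNA. At 4 h, ITGB6 had ratios of 0.71 in footprints and 0.97 in RNA. The single harringtonine libraries gave 587, 636, 742 and 1191 CPM for ITGA2 at 0, 1, 4 and 24 h of tamoxifen. ITGA5 had 493, 529, 429.8 and 1119 CPM, and ITGB6 128, 163, 139.5 and 359. ITGB3 had 0 harringtonine footprints at 0, 1 and 4 h and 7 at 24 h. In this drug too, the 24 h library was the highest for each of the 4.

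Ribosome loading of the integrin messages at 24 h was not called for any of the 10 by edgeR or DESeq2, where edgeR called 0.44% of all genes, and 0 had an unadjusted p under 0.05. The fitted loading change was 0.01 for ITGA2 (SE 0.31), −0.23 for ITGA5 (SE 0.35) and −0.15 for ITGB6 (SE 0.49). With RNA sequenced once at 24 h, these errors leave changes of the size of the SE undetectable.

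The promoters of 7 members had entries in RefSeq (GRCh38.p14), with none for ITGA3, ITGB3 and ITGB4. The 3 members with an entry that rose together at 24 h are shown by the 250 bases before their annotated start, 5′ to 3′ on the gene's strand. Capitals mark matches to AP-1 (TGANTCA), SP1 (GGGCGG) or TEAD (GGAATG), searched on both strands.
ITGA2 (chr5:52989102-52989351, plus strand): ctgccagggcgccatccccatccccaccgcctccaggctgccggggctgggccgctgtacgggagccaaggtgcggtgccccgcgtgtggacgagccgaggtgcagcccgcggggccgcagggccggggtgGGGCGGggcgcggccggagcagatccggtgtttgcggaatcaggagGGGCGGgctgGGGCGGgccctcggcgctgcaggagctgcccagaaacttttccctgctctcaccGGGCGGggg
ITGA5 (chr12:54419267-54419516, minus strand): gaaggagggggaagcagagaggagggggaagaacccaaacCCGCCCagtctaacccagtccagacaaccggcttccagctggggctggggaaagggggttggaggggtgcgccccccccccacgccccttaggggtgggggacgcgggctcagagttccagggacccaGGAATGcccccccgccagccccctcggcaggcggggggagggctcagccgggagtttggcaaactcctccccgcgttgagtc
ITGB6 (chr2:160200273-160200522, minus strand): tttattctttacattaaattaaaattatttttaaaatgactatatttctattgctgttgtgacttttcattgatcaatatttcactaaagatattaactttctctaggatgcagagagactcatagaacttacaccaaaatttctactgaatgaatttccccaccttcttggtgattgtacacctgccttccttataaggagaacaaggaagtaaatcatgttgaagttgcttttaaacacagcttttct
The ITGA2 window held 4 SP1 matches, the ITGA5 window 1 SP1 and 1 TEAD match, and the ITGB6 window none of the 3. Among all 35116 windows of this length, 42.6% held SP1, 11.9% TEAD and 6.57% AP-1. A match is a run of letters, not a measured site.

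Among the other adhesion genes of the ER-Src cells, some rose and some fell at 24 h, where 14.6% of all genes were called in footprints in either direction. Among 26 tested ligands 6 rose and 5 fell (median −0.25, edgeR). TNC (tenascin-C, which ITGAV with ITGB3 or ITGB6 can bind) had 9.14 to 40.6 CPM uninduced and 249.8 and 361 at 24 h, a change of 3.50 (SE 0.40). ICAM1 rose by 1.44 (SE 0.18), and CYR61 fell by 1.74 (SE 0.25) and TGFBI by 0.97 (SE 0.14). Among 38 adaptors 4 rose and 1 fell (median 0.08), a share near that of all genes: the Src substrates BCAR1 (1.07, SE 0.15) and PXN (0.83, SE 0.12) rose and GIT1 fell by 0.82 (SE 0.21). Among 15 hemidesmosome and lateral proteins 3 rose and 2 fell, with PLAUR (1.37, SE 0.27) and COL17A1, a hemidesmosome collagen (0.69, SE 0.16), up and CAV1 down by 1.25 (SE 0.14). Among 15 inhibitors and trafficking proteins 2 rose and 1 fell, and DAB2 rose by 1.97 (SE 0.35). Among 5 other integrin subunits 2 rose: ITGB8, a further partner of ITGAV, from 21.6 to 25.4 CPM to 40.7 and 41.3 (0.79, SE 0.16), and ITGA1, a collagen-binding chain, from 8.92 to 23.8 CPM to 26.2 and 36.8 (0.86, SE 0.25). At 4 h the lists held 2 calls, ICAM1 and PLAUR, both up. In RNA at 24 h, where 6.47% of all genes were called, the counts up and down were 1 and 0 of 6 other subunits, 2 and 2 of 37 adaptors, 5 and 5 of 25 ligands, 1 and 2 of 15 hemidesmosome and lateral proteins, and 1 and 0 of 14 inhibitors and trafficking proteins.

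The uninduced epithelial cells and the EH fibroblasts differed in most integrin subunits. Of the 10 members, 9 were called in footprints, where 59.1% of 10936 genes were. Cell type, donor, medium and sequencing set cannot be told apart here. ITGB4 had 9001 footprints in the 4 uninduced libraries and 1 in the 2 EH libraries, a ratio of 2001 after scaling (95% counting interval 359 to 79025), and ITGB6 had 1821 and 1 (ratio 405, 72.6 to 15995). The RNA ratios were 269 for ITGB4 (4986 counts against 4, 95% counting interval 105 to 988) and 332 for ITGB6 (3074 against 2, 91.7 to 2740). ITGA6 was also higher in the epithelial cells, by 1.46 (SE 0.12), and ITGA3 by 0.67 (SE 0.15). ITGA5 (−1.67, SE 0.19), ITGB1 (−1.52, SE 0.11), ITGB5 (−1.03, SE 0.14) and ITGAV (−0.41, SE 0.13) were lower, the last with an edgeR adjusted p of 0.125 when EH replicate 1 was left out. ITGB3 was higher in EH (31 counts against 1, ratio 139, 95% counting interval 23.2 to 5685), and ITGA2 did not pass (−0.36, edgeR adjusted p 0.0905). Of the loading differences 0 of 10 were called by edgeR or DESeq2, where edgeR called 1.14% of all genes, and 1 member, ITGA2, had an unadjusted p under 0.05.

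Per kilobase of coding sequence, ITGB1 was the most abundant subunit under cycloheximide in every arm, and the order below it differed. Under harringtonine it was also first except at 4 h of tamoxifen, where ITGA6 had 907 CPM per kilobase and ITGB1 879 in the single library. Footprints held where translation starts need not scale with coding length, so harringtonine values per kilobase do not rank the levels of genes. Under cycloheximide in EH, ITGB1 had 1805 CPM per kilobase (SD 71.1, n = 2), followed by ITGA5 (158), ITGA6 (104), ITGA3 (86.4), ITGB5 (71.9), ITGAV (71.0), ITGA2 (59.6) and ITGB3 (5.40). Of these neighbours, mean ± SD ranges met between ITGB5 and ITGAV. In EL the order was ITGB1 (811), ITGA5 (119.8), ITGA3 (70.0), ITGA6 (50.7), ITGAV (24.7), ITGB5 (17.0) and ITGA2 (11.3). In ELR it was ITGB1 (703), ITGA6 (179.8), ITGA3 (127), ITGA5 (92.1), ITGA2 (54.1), ITGAV (21.3) and ITGB5 (16.2). The laminin-binding chains thus stood above ITGA5 in ELR and below it in EL. In the uninduced ER-Src cells it was ITGB1 (640, SD 60.8, n = 4), ITGA6 (290, SD 32.6), ITGB4 (157, SD 25.9), ITGA3 (139, SD 21.6), ITGB6 (76.5, SD 28.5), ITGAV (54.7), ITGA5 (50.7), ITGA2 (47.2) and ITGB5 (35.96). There ITGB4 and ITGA3 did not differ beyond their SDs, nor did neighbours from ITGB6 down to ITGB5. After 24 h of tamoxifen ITGA2 and ITGA3 (154 each) and ITGA5 (144) stood side by side, and ITGB6 (197, SD 33.1, n = 2) and ITGB4 (179, SD 49.2) overlapped.

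The 5 alpha chains together had fewer footprints per kilobase than the 5 beta chains under cycloheximide, but not in every arm under harringtonine. The ratio of their sums was 0.249 and 0.260 in the 2 EH libraries, 0.338 and 0.327 in EL, and 0.643 and 0.674 in ELR. In the 10 ER-Src libraries it was 0.574 to 0.723, with the 2 libraries at 24 h of tamoxifen highest (0.718 and 0.723). Under harringtonine it was 0.652 and 0.596 in EH, 0.851 and 0.744 in EL, and 2.04 and 1.75 in ELR. In the single ER-Src harringtonine libraries it was 1.03 at 0 h, 0.97 at 1 h, 1.23 at 4 h and 1.03 at 24 h. These are sums over the 10 members only, and other alpha chains that pair with ITGB1 are outside them. Because harringtonine footprints need not scale with coding length, the ratios in that drug do not measure the make-up of the chains. Under cycloheximide ITGB1 made up 95.9% of the beta sum in EH, 97.6% in EL and ELR, 70.5% in the uninduced ER-Src arm (SD 2.20, n = 4) and 63.2% at 24 h (SD 2.64, n = 2). ITGB6 made up 8.23% of it uninduced (SD 2.40) and 18.1% at 24 h (SD 5.17). ITGA5 held 32.9% of the alpha sum in EH and 8.78% in the uninduced epithelial cells, and ITGA6 21.7% and 49.9%. ITGB4, which has no partner but ITGA6, had 0.546 times the footprints of ITGA6 per kilobase in the uninduced arm (SD 0.096, n = 4). Dividing by the whole spliced transcript instead of the coding part gave an alpha to beta ratio of 0.544 in place of 0.640 in the uninduced arm. The ITGB4 to ITGA6 ratio there became 0.915 (SD 0.161, n = 4) in place of 0.546. The counted region is not given, so this ratio depends on the length chosen.

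**Figure D4:**
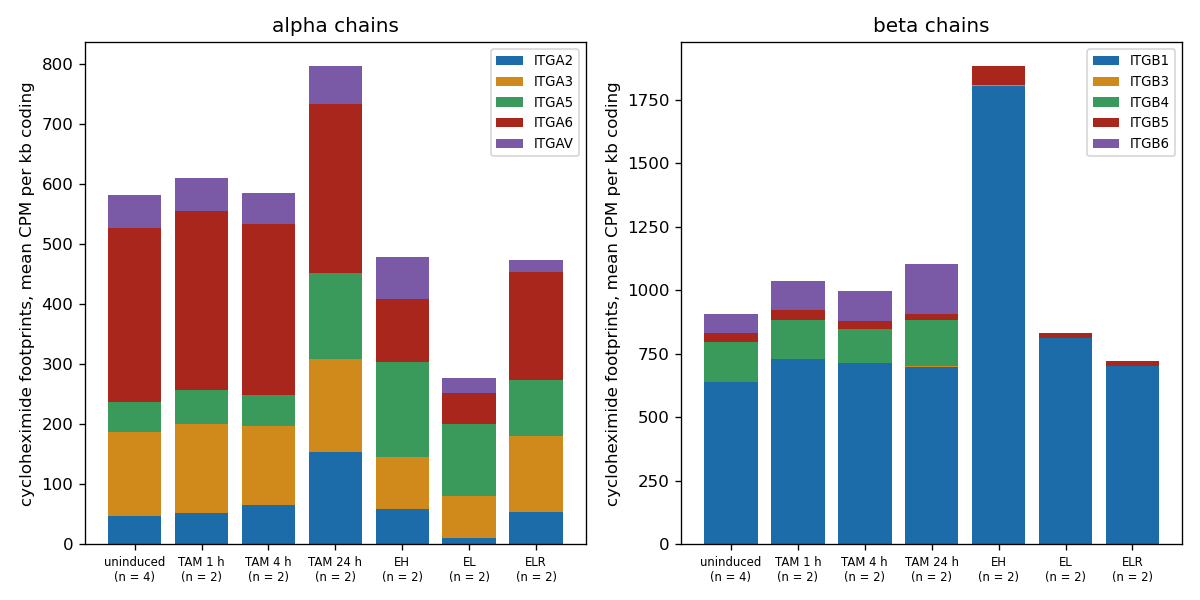
Make-up of the alpha chains (left) and beta chains (right) as mean cycloheximide footprints per kilobase of coding sequence (CPM per kilobase, bars stacked from 0, with the number of libraries under each bar and no error drawn). ITGB1 fills nearly the whole beta bar in the fibroblasts, and ITGB4 and ITGB6 take a visible part of it in the epithelial cells.

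The alpha chains and ITGB4 had more harringtonine footprints relative to cycloheximide footprints than ITGB1, ITGB5 and ITGB6 had, by their medians over arms. The log2 ratio of harringtonine to cycloheximide CPM (with 1 CPM added to each) was above 0 in all 7 arms for every alpha chain. It had a median of 1.62 for ITGA2 (1.12 to 1.80), 1.54 for ITGA3 (1.26 to 1.78), 1.26 for ITGA5 (1.00 to 1.55), 1.59 for ITGA6 (1.23 to 1.84) and 1.12 for ITGAV (0.82 to 1.77). ITGB4, the longest of the 10, had the highest median, 1.96, over the 4 ER-Src arms (1.54 to 2.27). The shorter beta chains were lower: 0.30 for ITGB1 (−0.08 to 0.67), −0.12 for ITGB5 (−0.69 to 0.58) and −0.78 for ITGB6 over 4 arms (−1.0 to −0.37). The median over 6827 genes at 20 CPM or more lay between −0.62 and −0.10 in the 7 arms. Coding length ran along with this order among the members (2364 to 2397 bases for these 3 beta chains, 3144 or more for the rest), and its part was not tested.

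**Figure D5:**
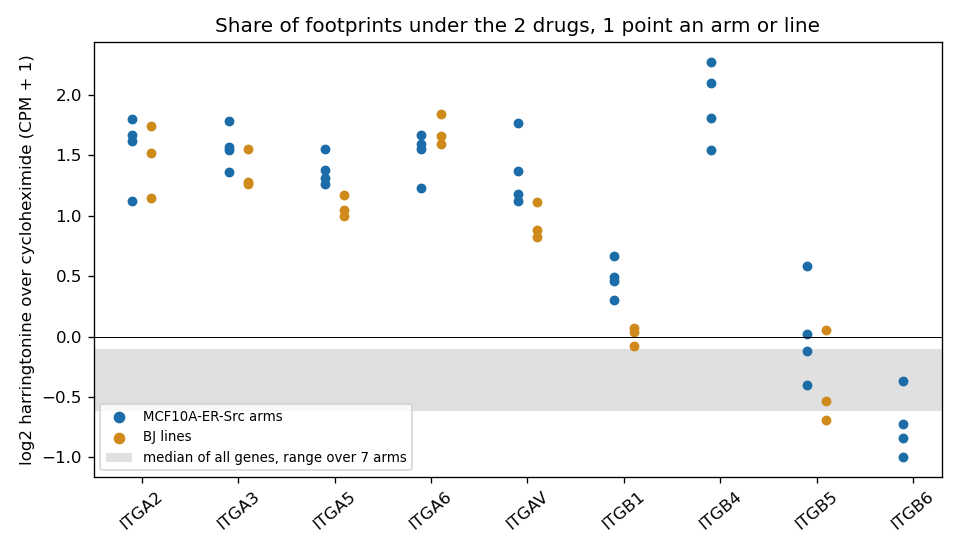
Log2 ratio of harringtonine to cycloheximide footprints (CPM + 1) for 9 integrin subunits, with a point for each ER-Src arm or BJ line and a grey band for the range of the all-gene median over the 7 arms. The alpha chains and ITGB4 lie above the band in every arm, and ITGB6 lies in it or below it in the 4 ER-Src arms.

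Footprints relative to RNA differed between the members. The log2 ratio of cycloheximide to RNA CPM had a median over arms of 0.92 for ITGA5 (0.72 to 1.13) and 0.77 for ITGB4 (0.68 to 0.83, 4 arms). It was 0.27 for ITGA6, 0.10 for ITGA3, −0.57 for ITGB1 (−0.73 to −0.51) and −0.725 for ITGB6 (−0.86 to −0.51, 4 arms). Lower still were ITGAV (−0.77), ITGA2 (−0.90, range −1.56 to −0.68) and ITGB5 (−1.04, range −1.37 to −0.91). Part of this order differed between arms. ITGA2 was below ITGB5 in EH (−1.47 against −0.99) and EL (−1.56 against −1.37). ITGA3 was above ITGA6 in EL (0.28 against −0.16) and ELR (0.44 against 0.01). ITGA5 and ITGB4 had more footprints for their RNA than ITGA2 and ITGB5 in every arm that held both. Each arm has 1 RNA library except the uninduced one, so this is a description. These ratios are not per kilobase, and whether RNA was counted over coding bases or whole transcripts is not given. Coding bases were 5466 of 5896 transcript bases in ITGB4 and 3147 of 4250 in ITGA5. In ITGA2 they were 3543 of 7843, and in ITGB5 2397 of 4440. The part of these lengths in the order was not tested.

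ITGA3, ITGA6 and ITGB1 have several deposited transcripts that differ at their cytoplasmic ends, and most of their counts are shared. The 2 leading ITGA3 transcripts differed by 3.53 to 5.82% of the count in the 16 cycloheximide libraries, the first being higher in all 16. In RNA the order was turned in all 10 libraries. ITGA6 was split the same way, with the first transcript higher in 15 of 16 cycloheximide libraries and lower in all 10 RNA libraries. The first ITGB1 transcript was higher in every library of each assay, by 2.64 to 4.02% under cycloheximide. These small differences come from the part of the gene that the transcripts do not share, so isoform shares cannot be read from them.

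Across the 16 cycloheximide libraries, after subtracting each model's mean, ITGAV and ITGB1 varied together (Pearson r 0.96), as did ITGB1 and ITGB5 (0.92), ITGAV and ITGB5 (0.91), ITGA3 and ITGA6 (0.86), and ITGA5 and ITGB3 (0.86). The genes most like ITGB1 over all genes tested were TIMP2 (0.974) and PSAP (0.972). ITGAV was most like PSAP (0.968) and PLA2R1 (0.967), ITGB5 like FAT1 (0.977) and GOLIM4 (0.969), and ITGA2 like TGM2 (0.943) and SRPX (0.927). ITGA6 was most like CAB39 (0.911) and LAMA5 (0.906), and ITGA3 like NBEAL2 (0.925) and SDC1 (0.875). For ITGA5 they were CTSB (0.934) and RAB31 (0.932), and for ITGB6 PPP4R1 (0.892) and BTG1 (0.88). TMSB4X (0.946) was among those of ITGB3, and SOGA3 (0.815) among those of ITGB4. The points share libraries, depth and the differences between lines and times, so these values only describe.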

How the data were processed

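The deposited values were whole-number counts for each transcript, 1 table a library. The authors aligned reads with TopHat to hg19, per the submitters' processing notes. The counting program, the counted region and the use of strand are not given in the sources used here. Footprints were taken after cycloheximide (100 µg/ml, 90 s) or harringtonine (2 µg/ml, 5 min), and RNA was depleted of ribosomal RNA before sequencing, per the labels' protocols. Scripts kept 1 transcript a gene, scaled counts by TMM to CPM, and tested genes with edgeR 4.0.16 in R 4.3.3 (filterByExpr, minimum count 10 and total 15, quasi-likelihood test, Benjamini-Hochberg adjustment over all genes tested). The SE is the log2 change divided by the square root of F, so it is approximate. DESeq2 1.42.0 and other settings were alternatives. The scripts were tested on simulated data. The members and gene lists were chosen with earlier results of these data known. All members were named, and from each list the up to 2 genes a direction with the smallest adjusted p under 0.05. Genes listed as most alike had the highest Pearson r, 2 a member, and some are not reported here. Coding lengths and coordinates came from GENCODE mapped to GRCh37. Reads shared between overlapping transcripts or genes cannot be told apart, and intervals on counts cover counting error only.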

Additional observations from a re-analysis of the deposited data

Results flagged for a closer look

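Values were flagged when 1 library stood far from the others of its group or when the effect of induction differed between times. Chance flags about 1 in 20 groups, and 19 sets of libraries were looked at for such a library. ITGB3 stood at 0.338 CPM in the 1 h ethanol footprint library and at 0 in the other uninduced ones, which is a single count. ITGB1 RNA was 2251 CPM in the 24 h ethanol library, below the other 3 uninduced libraries (2607 to 2672).

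The induction effect on footprints differed between times by a direct contrast in edgeR. From 1 to 24 h the log2 difference was 1.57 for ITGA2, 1.32 for ITGA5 and −0.63 for ITGB5. From 4 to 24 h it was 1.25 for ITGA2 and 1.48 for ITGA5. For ITGB3 the fitted differences were 3.89 and 3.21, and they depend on the model's prior count, since the 1 h libraries held 2 counts and the 4 h libraries 5.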

How the results depend on the processing

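No alternative turned the direction of a called change. Leaving out 1 library at a time left 124 counts of called members within 1.5 times of the reported count and moved 7. The other alternatives left 81 such values and moved 12. For single members, 1134 results with a library left out stayed on their side of the threshold, 27 lost the call and 5 gained it, and under other alternatives 700 stayed, 20 lost it and 5 gained it.

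With the spread shared with the ER-Src libraries, 5 members were called between EL and EH and 3 between ELR and EL. DESeq2 called 2 between ELR and EL under harringtonine, and 0 for ribosome loading in each pair of BJ lines. For loading, choosing the transcript by the libraries of the fit gave 0 between EL and EH, and no filter on low counts gave 2 between ELR and EH. With DESeq2 size factors the loading call between ELR and EL passed from ITGAV (−0.50, edgeR adjusted p 0.115) to ITGA2 (0.55, adjusted p 0.043). Without EL replicate 1 these changes were −0.52 and 0.75. With 1 library left out, the loading calls ranged from 0 to 1 between EL and EH, 0 to 1 between ELR and EL, and 0 to 2 between ELR and EH. Per spliced transcript length, the alpha to beta ratio was 0.544 uninduced and 0.241 in EH, and ITGB1 made up 66.9% and 96.6% of the beta sum. Fewer genes were called over all genes with DESeq2: 2461 of 4150 between EL and EH, 1822 of 3606 between ELR and EL, 255 of 659, 187 of 579 and 491 of 1092 under harringtonine, and 233 of 743, 105 of 329 and 288 of 829 for loading. With shared spread they were 2608 and 1781. At 24 h, leaving out either tamoxifen footprint library gave 766 or 703 in place of 1492, and RNA gave 447 with DESeq2 and 1595 without the 24 h ethanol library in place of 687. Loading at 24 h gave 93 with DESeq2 in place of 49. The cause of these shifts was not tested.

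A check on pairing by replicate number gave correlations of −0.02 to 0.03 between BJ lines and 0.04 to 0.18 between Src times. These correlations do not measure a replicate effect on a single member. ITGA5 footprints were higher in replicate 1 at each tamoxifen time. With the replicate number as a block, members called were 8, 5 and 7 under cycloheximide and 6, 4 and 6 under harringtonine in the BJ comparisons, 0 at 1 h and 4 h, and 5 at 24 h, where ITGB5 was added (−0.54, edgeR adjusted p 0.0464). No paired analysis was possible for RNA or loading, because RNA carries 1 replicate an arm.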

Other observations

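Of the leukocyte integrin chains, ITGB2 gave a low signal in the epithelial cells. This common beta chain had 6.69 to 12.2 CPM of footprints in the 4 uninduced ER-Src libraries and 15.6 and 16.4 at 24 h of tamoxifen, and 0 in EH. Its alpha partners ITGAM and ITGAX reached at most 0.743 and 0.338 CPM in the uninduced footprint libraries. The leukocyte markers PTPRC, CD3E and ITGAL were at 0 in all 10 ER-Src footprint libraries, and the sum of the 8 leukocyte markers was 113 to 241 CPM there and 1.54 to 4.20 in the BJ lines. The source of the ITGB2 signal was not tested.

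ITGA4, which pairs with ITGB1 to bind fibronectin, had 85.8 and 106 CPM of footprints in EH and 0.522 to 0.743 in the uninduced ER-Src libraries. ITGB8 had 0 footprints in the BJ cycloheximide libraries.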
